A study of Mus musculus with 2 samples.

Results

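The regions described here were bound, by the deposited calls, in both the Etv4 and the Etv5 ChIP-seq library and lay in intergenic sequence at moderate distance from a gene start. A region of the Etv4 list was taken when it had 1 bp or more in common with a region of the Etv5 list, when its midpoint was outside every annotated gene, and when the midpoint was more than 2 kb and at most 50 kb from the nearest annotated transcript start. These regions numbered 1523 of the 13636 regions of the Etv4 list and are called shared intergenic regions. They overlapped 1542 of the 8297 regions of the Etv5 list. They were chosen by the 2 sets of region calls, so their overlap, number and length are descriptions and were not tested. Over the whole Etv4 list, 37.8% of regions overlapped an Etv5 region.

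The study prepared 2 ChIP-seq libraries, 1 per antibody, from EpRas cells, mouse mammary gland epithelial cells of the EpH4 line transformed with oncogenic H-Ras. All cells were grown in 4% fetal bovine serum and received 1 ng/ml TGF-β3 for 1.5 h, so that treatment was common to both libraries. Etv4 was precipitated with a rabbit polyclonal antibody and Etv5 with a mouse monoclonal antibody. There was no replicate, the calls used no control library, and the lists carry neither read counts nor peak heights, so the depth behind a region is unknown. Intervals given here are 95% intervals, exact (Clopper-Pearson) for shares and Newcombe for differences of shares, and cover counting error only.

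Etv4 and Etv5 belong to the PEA3 subfamily of ETS transcription factors, which bind DNA with a GGAA core and act downstream of Ras and ERK signalling. Dimers of Fos and Jun proteins, called AP-1, recognise TGAGTCA or TGACTCA and often occupy enhancers, the regulatory elements that lie at a distance from promoters. ETS and AP-1 sites that lie close together have long been known as Ras-responsive elements. TEAD factors, the DNA-binding partners of YAP, and RUNX factors are also frequent at enhancers of epithelial cells.

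Sequences were taken from the RefSeq GRCm38.p6 assembly, the assembly that mm10 names. A pair of an AP-1 and an ETS site within 50 bp of each other was found in 27 shared intergenic regions. The first 6 eligible ones in the order of the Etv4 list are printed here because they carry both kinds of site. The plus strand is written 5′ to 3′ with 20 bases on each side, and capitals mark the AP-1 site (TGAGTCA or TGACTCA) and the ETS site (CAGGAAGT or CCGGAAGT, or the reverse complement) of the closest pair.
Bard1, chr1:71004318-71004385: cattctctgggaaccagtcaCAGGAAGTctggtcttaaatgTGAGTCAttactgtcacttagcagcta
Adam12, chr7:134261578-134261653: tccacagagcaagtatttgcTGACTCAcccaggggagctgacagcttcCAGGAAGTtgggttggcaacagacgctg
Cldn23, chr8:35915940-35916020: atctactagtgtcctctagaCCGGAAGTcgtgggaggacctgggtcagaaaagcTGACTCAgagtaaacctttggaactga
Otud4, chr8:79636215-79636288: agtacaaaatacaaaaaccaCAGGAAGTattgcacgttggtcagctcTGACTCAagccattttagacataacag
Dusp5, chr19:53555175-53555245: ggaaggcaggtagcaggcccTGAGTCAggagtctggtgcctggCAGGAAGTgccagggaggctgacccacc
Zpld1, chr16:55555361-55555415: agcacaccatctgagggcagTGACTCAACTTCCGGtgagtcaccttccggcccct
Each sequence is named after the gene with the nearest protein-coding transcript start. That start lay 3.29 kb from the region at Otud4, 25.9 kb at Dusp5 (a phosphatase of ERK), 29.4 kb at Adam12 (a cell surface protease), 89.5 kb at Cldn23, 98.7 kb at Bard1 and 257 kb at Zpld1. Between the AP-1 and the ETS site were 13 bp at Bard1, 21 bp at Adam12, 26 bp at Cldn23, 19 bp at Otud4 and 16 bp at Dusp5, whereas the sites were directly adjacent at Zpld1. There another AP-1 site, left in lower case, adjoined the ETS site on its other side. The distances thus differed in all 6 sequences.

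Most shared intergenic regions had no such pair. Stretches of 7 regions assigned to genes of invasion, signalling and adhesion are given as examples, chosen after their values were seen. The assigned start lay 2.43 kb from the region at Fosl1, 2.67 kb at Plaur, 4.12 kb at Itgb4 and 13.8 kb at Mmp13. It lay 56.8 kb away at Ptgs2, 148 kb at Hmga2 and 645 kb at Inhba. For each gene the region earliest in the Etv4 list with a site was used, and the site nearest the midpoint is shown with 40 bases on each side. Capitals here mark AP-1 sites and TEAD sites (ACATTCC or GCATTCC, or GGAATGT or GGAATGC on the other strand).
Mmp13, chr9:7258674-7258760: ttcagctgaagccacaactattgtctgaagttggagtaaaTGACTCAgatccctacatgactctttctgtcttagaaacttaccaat
Hmga2, chr10:120624370-120624456: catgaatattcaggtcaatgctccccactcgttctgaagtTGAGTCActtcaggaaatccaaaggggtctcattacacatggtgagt
Inhba, chr13:16659870-16659956: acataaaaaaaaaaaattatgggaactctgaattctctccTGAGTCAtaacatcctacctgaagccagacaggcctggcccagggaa
Fosl1, chr19:5445111-5445197: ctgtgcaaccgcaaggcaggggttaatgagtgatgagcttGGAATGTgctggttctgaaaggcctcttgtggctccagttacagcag
Ptgs2, chr1:150043332-150043418: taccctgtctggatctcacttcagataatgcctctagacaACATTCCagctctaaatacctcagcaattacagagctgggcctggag
Plaur, chr7:24459558-24459644: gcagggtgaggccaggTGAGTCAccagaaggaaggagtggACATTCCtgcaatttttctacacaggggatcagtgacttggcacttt
Itgb4, chr11:115970442-115970528: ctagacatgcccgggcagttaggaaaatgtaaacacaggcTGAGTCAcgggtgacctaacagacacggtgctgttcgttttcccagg
An AP-1 site was nearest the midpoint at Mmp13, Hmga2, Inhba and Itgb4, and a TEAD site at Fosl1 and Ptgs2. At Plaur a TEAD site and an AP-1 site lay in the same stretch. None of these 7 regions had an ETS site within 250 bp of its midpoint.

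The calls of the libraries were first set side by side at the shared intergenic regions. A single Etv5 region was the partner in 1493 of them, while 28 had 2 partners and 2 had 3 or more. The median overlap was 568 bp (quartiles 384 and 650 bp), which amounted to a median of 75.5% of the Etv4 region and 99.5% of the Etv5 region. In 714 regions (46.9%), the Etv5 region lay wholly inside the Etv4 region. The Etv4 region was the longer of the pair in 1108 (72.8%), with a median length of 727 bp against 596 bp for the Etv5 partner. Midpoints of the pair were a median of 72 bp apart, and 933 pairs (61.3%) were within 100 bp. Both regions overlapped by 50% or more in 1260 pairs (82.7%), so most pairs coincided closely, and only 11 had a reciprocal overlap below 10%.

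**Figure D1:**
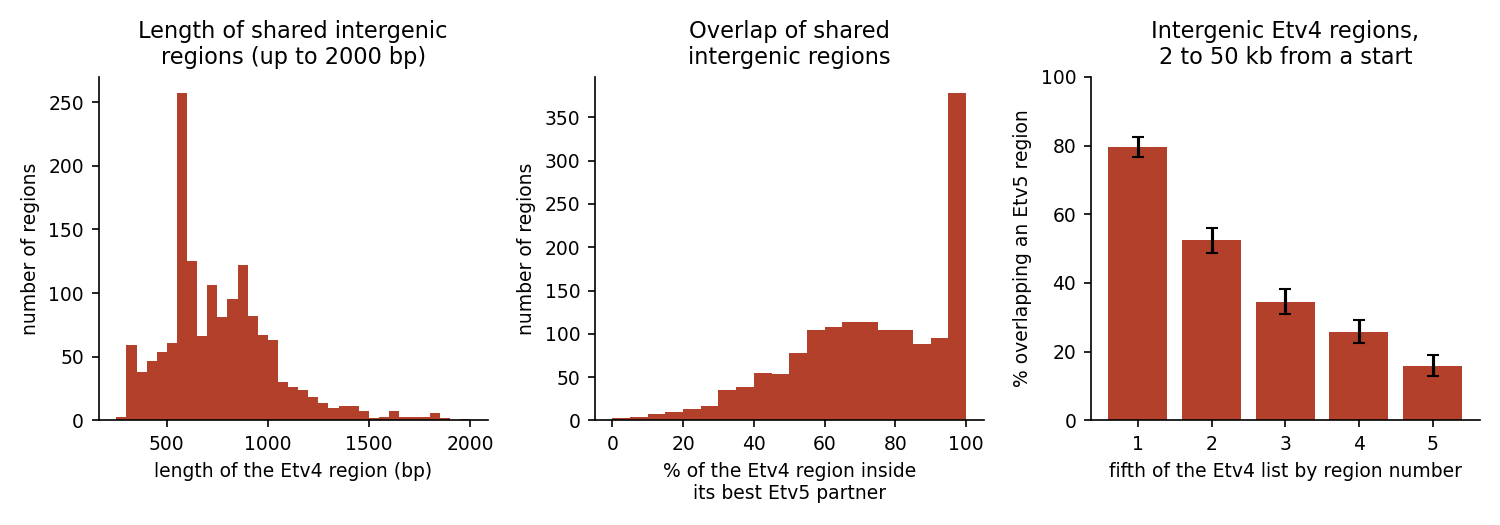
Numbers of shared intergenic regions by length in bp (left, bins of 50 bp, with the few longest regions beyond the axis) and by the percentage of the Etv4 region inside its best Etv5 partner (middle, bins of 5%), and the percentage of intergenic Etv4 regions 2 to 50 kb from a start that overlapped an Etv5 region in each quintile (20%) of the Etv4 list by region number (right, bars with exact 95% intervals). The share fell from 79.6% in the first quintile to 15.8% in the last.

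Each region carries a number in its list, the criterion of which is not stated. Overlap varied with it. Of the 796 intergenic Etv4 regions at 2 to 50 kb in the first quintile of the list, 634 (79.6%, interval 76.7 to 82.4%) were shared. The share was 52.4% in the second quintile, 34.5% in the third, 25.8% in the fourth and 15.8% (interval 13.0 to 18.9%) in the last. Shared intergenic regions had a median number of 3513, against 8388 for the 1973 Etv4 regions of the same intergenic compartment that overlapped no Etv5 region, which are called Etv4-only here. They were also longer, with quartiles of 590 and 914.5 bp against 392 and 624 bp. Their numbers in the Etv4 and Etv5 lists had a Spearman correlation of 0.508 across the 1523 pairs, and the number and the length in the Etv4 list one of -0.782. Both correlations are across regions of a single library per antibody.

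Base composition set these regions apart from the sequence around them. Within the 500 bp around the Etv4 midpoint the GC content was 47.4% ± 6.80 (SD over 1523 regions), whereas the 1847457 windows of 500 bp that tile the same compartment outside both lists had 41.2% ± 6.12. It was similar in Etv4-only regions (47.0%) and in shared regions inside genes (48.0%). Repeats, marked in lower case in the assembly, made up a mean of 23.6% of the sequence against 44.4% in the compartment and 19.4% in Etv4-only regions. In 165 shared intergenic regions (10.8%, interval 9.32 to 12.5%), called multicopy from here on, more than 50% of the stretches of 36 bases had a further copy in the assembly. This share was 2.83 points higher (interval 0.881 to 4.83) than among Etv4-only regions, at 8.01%, and 5.56 points higher (interval 3.71 to 7.47) than among the 1802 shared regions inside genes, at 5.27%. It was 15.3 points below that of the 322 shared intergenic regions beyond 50 kb, at 26.1% (difference -15.3, interval -20.5 to -10.5). The main results on sequence patterns are therefore also given without the multicopy regions. Compartment windows were not filtered in this way, so those folds set filtered regions against unfiltered windows.

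By share of regions, AP-1 was the most frequent of the 17 sequence patterns searched. The site TGAGTCA or TGACTCA was present within 250 bp of the midpoint of 766 shared intergenic regions (50.3%, interval 47.8 to 52.8%). Over all nuclear Etv4 regions the share was 37.4%. Compartment windows with the same GC content, standardised in steps of 2 percentage points, held the site in 7.80% of cases, so the share was 6.45-fold higher (interval 6.12 to 6.78). Without the multicopy regions, 762 of 1358 regions (56.1%) carried it, at 7.12-fold (interval 6.78 to 7.46). Multicopy regions carried it in only 4 of 165 cases (2.42%, interval 0.664 to 6.09%). Most regions with an AP-1 site had only 1: 556 had 1 site, 170 (11.2%) had 2 and 40 (2.63%) had 3 or more, with a highest number of 6. Among Etv4-only regions, 9.33% had 2 sites and 1.22% had 3 or more. The region at chr1:36325381-36326720, assigned to Arid5a, had 4 AP-1 sites, and they are marked in capitals in the following stretch, which was chosen for their number.
Arid5a, chr1:36325891-36326164: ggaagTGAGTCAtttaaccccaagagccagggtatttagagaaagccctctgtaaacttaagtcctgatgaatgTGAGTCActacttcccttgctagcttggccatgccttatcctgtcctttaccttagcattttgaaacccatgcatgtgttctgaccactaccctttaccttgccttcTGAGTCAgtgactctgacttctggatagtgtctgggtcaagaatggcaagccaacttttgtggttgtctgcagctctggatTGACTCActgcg

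The pattern of the antibody targets themselves was much less frequent. CAGGAAGT or CCGGAAGT occurred in 117 shared intergenic regions (7.68%, interval 6.39 to 9.14%), 1.86-fold (interval 1.55 to 2.21) over the expected 4.14%, and 2.01-fold (interval 1.68 to 2.39) without the multicopy regions. Over all nuclear Etv4 regions, promoters included, it was present in 10.2%. The stricter CCGGAAGT was found in 15 regions (0.985%), at 2.14-fold with a wide interval (1.20 to 3.51). The same ETS letters written backwards, TGAAGGAC or TGAAGGCC, which have the same composition, occurred in 54 regions (3.55%) at 0.796-fold (interval 0.600 to 1.03). The ETS pattern was thus above both its expectation and its reversed control, but most shared intergenic regions had no match in this window.

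**Figure D2:**
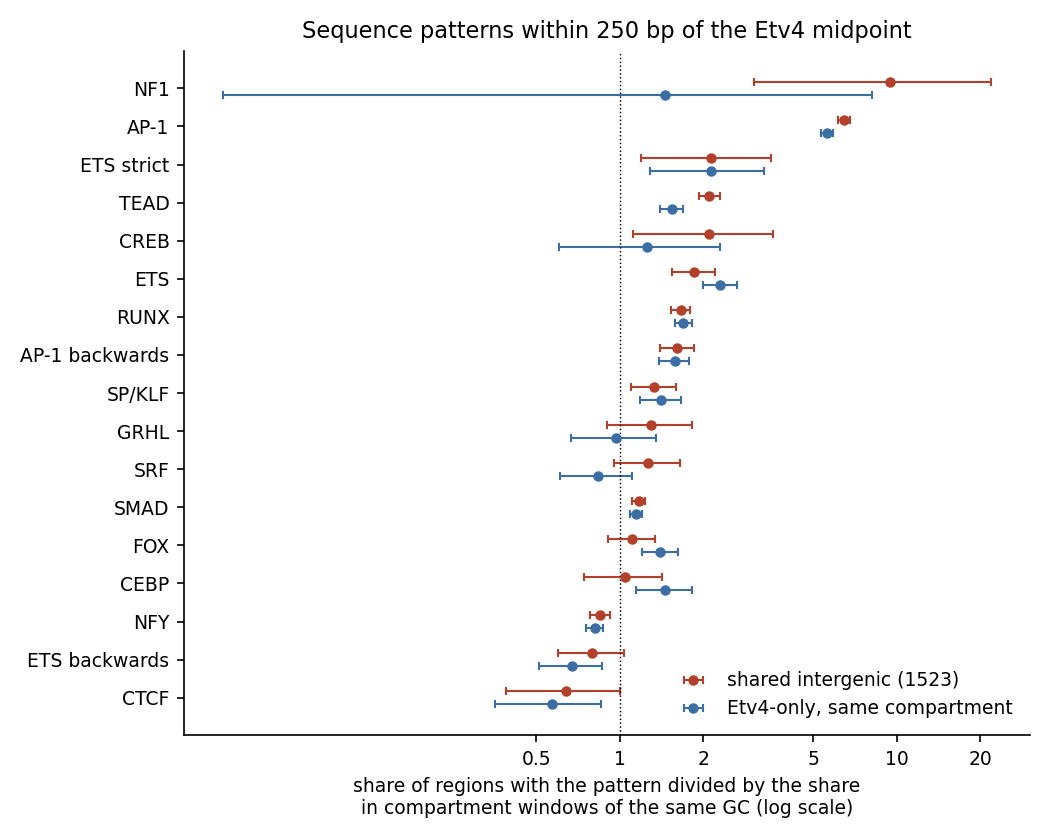
Share of regions with each sequence pattern within 250 bp of the Etv4 midpoint, divided by the share in compartment windows of the same GC content (log scale), for shared intergenic regions (red) and Etv4-only regions of the same compartment (blue), with 95% intervals from the exact interval of the share. AP-1 lies at 6.45-fold in shared intergenic regions, ETS at 1.86-fold and TEAD at 2.11-fold, while NF1 rests on 5 regions.

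Among other factors, TEAD sites (ACATTCC or GCATTCC) were present in 393 regions (25.8%, interval 23.6 to 28.1%), 2.11-fold (interval 1.93 to 2.29) over expectation and against 19.7% over all nuclear Etv4 regions. The reverse complement of this pattern contains the GGAA core but cannot be part of the ETS pattern. RUNX sites (TGTGGTC or TGTGGTT) occurred in 424 regions (27.8%, 1.66-fold, interval 1.53 to 1.80), against 24.7% over all nuclear Etv4 regions. The SMAD pattern CAGACA, 6 bases long and thus common in any sequence, was found in 707 regions (46.4%, 1.17-fold, interval 1.11 to 1.24). The CREB site TGACGTCA was at 2.10-fold (13 regions, interval 1.12 to 3.57) and the SP/KLF pattern GGGCGGG at 1.33-fold (106 regions, interval 1.10 to 1.60). The highest fold was that of NF1, at 9.42-fold, but on only 5 regions (interval 3.06 to 21.9). Intervals included 1 for CEBP (TTGCACAA or TTGCATAA or TTGCGCAA or TTGCGTAA, 1.04-fold), GRHL (AACCAGTT or AACCGGTT, 1.30-fold), FOX (TGTTTAC, 1.11-fold), SRF (1.27-fold) and CTCF (19 regions, 0.643-fold). The pattern of NFY (CCAATNA or CCAATNG) was below expectation, at 0.851-fold (interval 0.784 to 0.921). Without the multicopy regions, TEAD was at 2.23-fold, RUNX at 1.73-fold and SMAD at 1.25-fold. In those 1358 regions, against the unfiltered windows, the interval excluded 1 for FOX (1.26-fold, interval 1.04 to 1.53) and CTCF (0.590-fold, interval 0.338 to 0.955). GRHL lay on the other side of 1, at 0.813-fold (interval 0.483 to 1.28), since 15 of its 33 regions were multicopy. The AP-1 letters written backwards, ACTCAGT or ACTGAGT, were at 1.62-fold in all shared intergenic regions, and this pattern overlaps an AP-1 site that is followed by GT. In the 757 regions without an AP-1 site it was at 1.09-fold (interval 0.820 to 1.41), and in the 596 of these that were not multicopy at 1.33-fold (interval 0.997 to 1.73).

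The shared intergenic regions were next compared with Etv4-only regions of the same compartment, which differ from them by the Etv5 call. AP-1 sites were 5.95 points more frequent in shared intergenic regions (50.3 against 44.3%, interval 2.61 to 9.27). The difference was 8.23 points (interval 4.72 to 11.7) without multicopy regions. Since shared regions stand earlier in the list, the comparison was repeated within quintiles of the Etv4 number. The difference was then 6.71 points in the first quintile, -0.816 in the second, 1.56 in the third, 0.998 in the fourth and -1.46 in the last, and 2.84 points on average when weighted by the shared intergenic regions. The AP-1 difference was largest in the first quintile, where 53.6% of 634 shared intergenic and 46.9% of 162 Etv4-only regions had a site. In the later quintiles it lay between -1.46 and 1.56 points, so the average rests mainly on the first. No interval was computed within quintiles, for AP-1 or for ETS. The ETS pattern went the other way, at 7.68 against 9.63% (difference -1.95, interval -3.80 to -0.0527), and was lower in shared intergenic regions in each of the 5 quintiles, with differences of -1.34 to -5.06 points and a weighted average of -3.69. The interval of the ETS difference included 0 without multicopy regions (-1.49, interval -3.49 to 0.580) and in the central 200 bp (-0.956, interval -2.29 to 0.424).

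TEAD sites were also more frequent in shared intergenic regions than in Etv4-only regions, but were not compared within quintiles of the Etv4 number. They were present in 25.8% of shared intergenic and 19.2% of Etv4-only regions, a difference of 6.60 points (interval 3.80 to 9.41), and of 7.38 points (interval 4.38 to 10.4) without multicopy regions. RUNX (-0.898 points, interval -3.89 to 2.12) and SMAD (1.06 points, interval -2.27 to 4.39) had intervals that included 0. FOX sites were less frequent (-1.88 points, interval -3.63 to -0.0992) and SRF sites more frequent (1.15 points, interval 0.0351 to 2.34) than in Etv4-only regions, and both intervals included 0 without multicopy regions. Against shared regions inside genes, shared intergenic regions had fewer RUNX sites (27.8 against 32.1%, difference -4.29, interval -7.39 to -1.16) and fewer AP-1 sites (-3.59 points, interval -6.99 to -0.182). SMAD (-4.69 points, interval -8.08 to -1.28) and FOX (-1.97 points, interval -3.77 to -0.149) were also lower and SP/KLF was higher (1.63 points, interval 0.000392 to 3.31), and these 3 intervals included 0 without multicopy regions. Without multicopy regions the AP-1 difference was -0.537 points (interval -4.07 to 2.99), whereas the RUNX difference remained below 0 at -3.38 (interval -6.64 to -0.0892). TEAD sites stood at 25.8 against 27.4% in shared regions inside genes, with an interval that included 0 (difference -1.61, interval -4.61 to 1.41).

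Sites were then located relative to the midpoints. AP-1 sites had a density of 2.08 per kb in the central 200 bp around the Etv4 midpoint and 0.271 per kb at 300 to 500 bp from it, a ratio of 7.68. Around the Etv5 midpoint of the same regions the ratio was 6.47, and around the midpoint of the overlap it was 7.22. TEAD sites were 2.63-fold and RUNX sites 2.02-fold denser in the centre. ETS sites were 1.82-fold denser around the Etv4 midpoint but 1.38-fold around the Etv5 midpoint, on only 59 and 49 central sites. The reversed ETS letters had a ratio of 0.708 and the reversed AP-1 letters one of 1.98. Etv4-only regions also had denser sites in the centre, with ratios of 8.30 for AP-1, 2.22 for TEAD, 1.80 for RUNX and 2.39 for ETS.

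**Figure D3:**
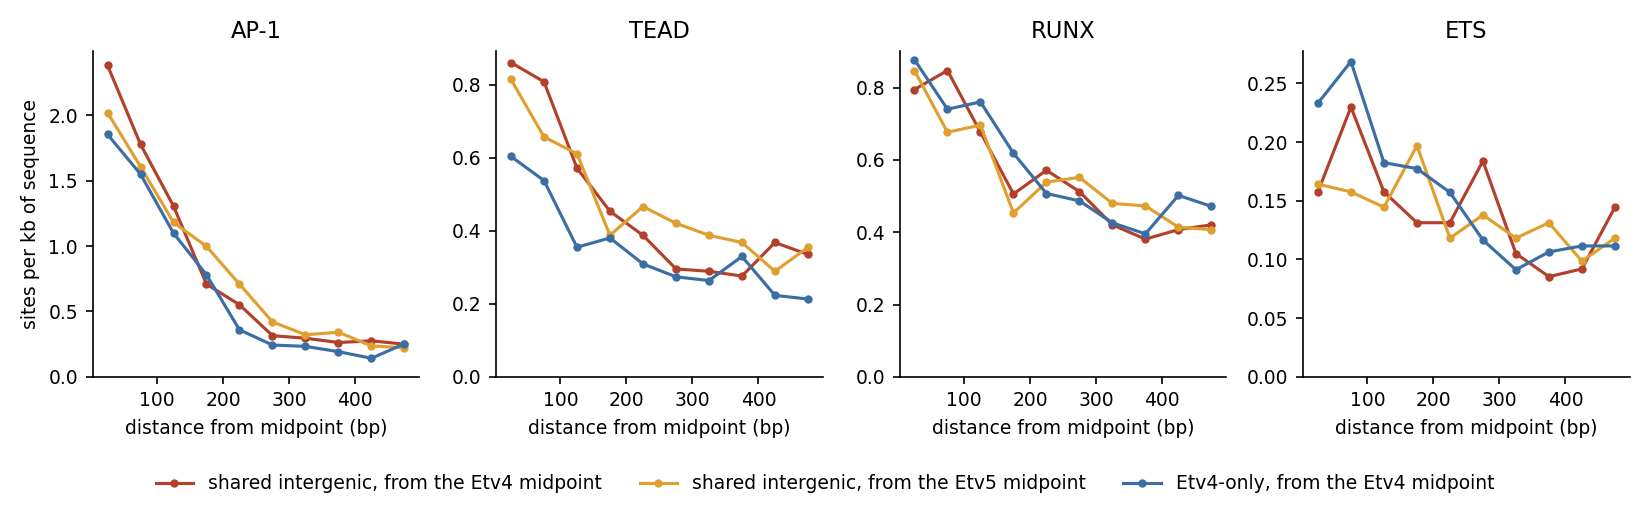
Density of AP-1, TEAD, RUNX and ETS sites (sites per kb, y axes scaled separately) by distance from the midpoint in steps of 50 bp, for shared intergenic regions centred on the Etv4 or on the Etv5 midpoint and for Etv4-only regions of the same compartment. The AP-1 density of shared intergenic regions declined from 2.38 per kb within 50 bp of the Etv4 midpoint to 0.250 per kb at 450 to 500 bp, and its ETS values around that midpoint rest on 13 to 35 sites a step.

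To examine whether the sites came together, AP-1 shares were compared between regions with and without each other pattern. With an ETS site, 60.7% of shared intergenic regions had an AP-1 site, against 49.4% without (difference 11.3 points, interval 1.83 to 20.03). Multicopy regions hold few sites of either kind, and without them the difference was 5.57 points with an interval that included 0 (-3.92 to 14.4). Regions with a TEAD site had an AP-1 site in 46.8% of cases, against 51.5% of those without (difference -4.69, interval -10.4 to 1.05). Without multicopy regions these shares were 48.9 and 58.8%, and the interval no longer included 0 (difference -9.91, interval -15.8 to -3.98). For SMAD the difference was 10.9 points over all shared intergenic regions (interval 5.90 to 15.9) and 3.92 points without the multicopy ones (interval -1.35 to 9.17). For RUNX it was 2.86 points (interval -2.74 to 8.42), and -0.387 points without the multicopy regions (interval -6.22 to 5.37). AP-1 and ETS sites occurred together in 71 shared intergenic regions (4.66%) and within 50 bp in 27 (1.77%, interval 1.17 to 2.57%). In Etv4-only regions, 92 (4.66%) had both and 34 (1.72%) had them within 50 bp. Distances between AP-1 sites and the GGAA core were also counted, at 116 offsets and orientations up to 30 bp around 1018 AP-1 sites. A mean of 0.622% of sites had a core at a given offset. The highest value was 1.47% (15 sites, interval 0.827 to 2.42%), against 0.634% at that offset in Etv4-only regions and 0.517% in the compartment. It is the highest of 116 values, which its interval does not allow for.

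None of the AP-1, ETS, RUNX and TEAD patterns was present in 382 shared intergenic regions (25.1%), and in 263 of 1358 (19.4%) without multicopy regions, whereas 64.8% was expected from compartment windows. Words of 7 bases were therefore counted in the 596 regions without an AP-1 site, multicopy regions left out. The words TGAGTAA (17.1%, 3.87-fold), TGAATCA (19.8%, 3.63-fold) and TGACTAA (17.4%, 3.53-fold), each 1 base away from an AP-1 site, were among the 6 words highest in fold that occurred in 3% or more of these regions. Any of these 3 words, picked after their values were seen, was present in 262 of the 596 (44.0%, interval 39.9 to 48.1%) against 13.9% expected (3.16-fold). In Etv4-only regions without an AP-1 site it was 372 of 946 (39.3%, 2.67-fold). The TEAD word ACATTCC stood at 20.97% (3.27-fold). Highest in fold was ACGTCAT, which overlaps the CREB site, at 3.86% (4.03-fold).

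Position within the compartment was considered next. The distance to the nearest start was 2 to 5 kb in 229 shared intergenic regions (15.0%), 5 to 10 kb in 349 (22.9%), 10 to 20 kb in 436 (28.6%) and 20 to 50 kb in 509 (33.4%), with a median of 13.4 kb. Compared with the amount of sequence at each distance, they were densest at 5 to 10 kb (1.19-fold) and sparsest at 20 to 50 kb (0.839-fold). AP-1 shares ranged from 45.4% (interval 38.8 to 52.1%) at 2 to 5 kb to 54.4% (interval 49.6 to 59.1%) at 10 to 20 kb. ETS shares were 9.17, 9.46, 6.42 and 6.88% from the nearest to the farthest step, and TEAD shares 23.6, 23.2, 24.8 and 29.5%. Differences between steps were not tested.

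**Figure D4:**
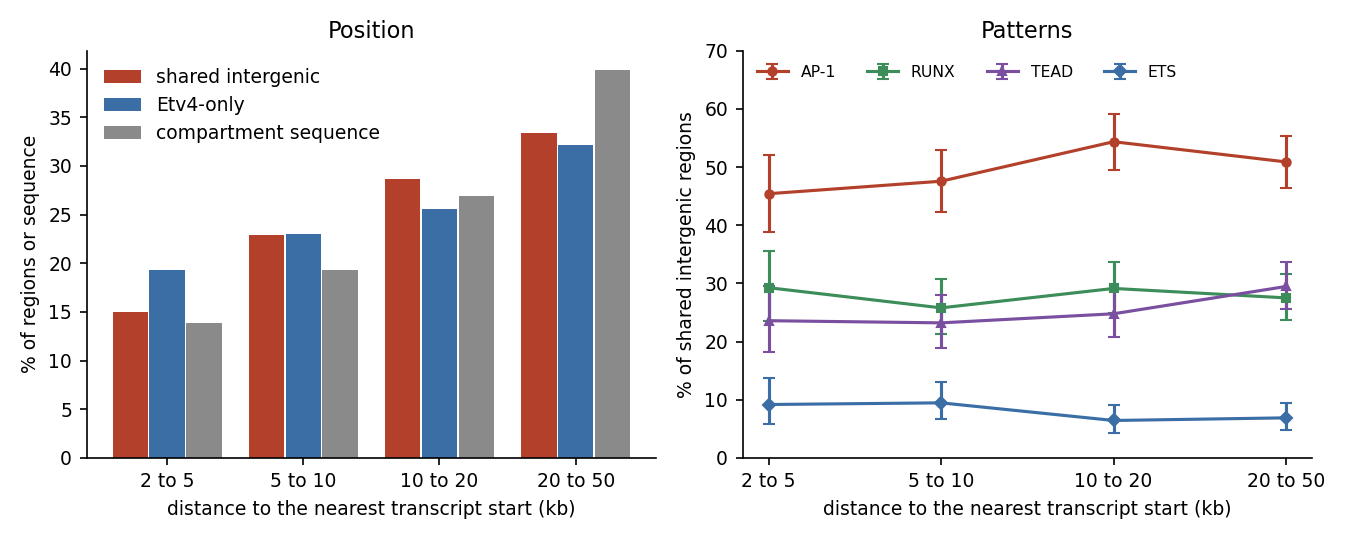
Left, percentage of shared intergenic regions, Etv4-only regions and compartment sequence by distance to the nearest transcript start in kb. Right, percentage of shared intergenic regions with an AP-1, RUNX, TEAD or ETS site at each distance, with exact 95% intervals; AP-1 stays between 45.4 and 54.4% and ETS between 6.42 and 9.46%.

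By region number, AP-1 shares in quintiles of the shared intergenic regions were 48.2, 59.2, 53.4, 49.01 and 41.6%, and the last quintile (interval 36.05 to 47.4%) lay below the second (interval 53.5 to 64.8%). Multicopy regions, which rarely had an AP-1 site, numbered 63 of 305 in the last quintile and 10 of 304 in the second, and their part in the difference was not tested. Median lengths of these quintiles declined from 985 to 466 bp. The ETS shares of the same quintiles were 10.8, 7.24, 10.5, 2.63 and 7.21%. TEAD shares lay between 22.0 and 27.9% in all 5 quintiles.

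The shared intergenic regions were unevenly distributed over the chromosomes. Their density was 16.4 per 10 Mb of compartment over all chromosomes, 37.2 on chromosome 19, 30.96 on chromosome 15, 30.9 on chromosome 11 and 25.2 on chromosome 1, which held the largest number, 159. Low densities were found on chromosome 14 (5.46, 22 regions), on X (4.90, 36 regions, of which only 12 were not multicopy) and on Y (1.22, 8 regions). Among intergenic Etv4 regions at this distance, 43.6% were shared, and the share ranged from 25.8% on Y and 28.9% on chromosome 14 to 54.7% on chromosome 19 and 55.95% on chromosome 8. Within 1 Mb of the first sequenced base of a chromosome lay 38 regions (2.50%, interval 1.77 to 3.41%) on 16 chromosomes, against 1.42% of Etv4-only regions (difference 1.08 points, interval 0.159 to 2.09) and 0.931% of compartment windows. Of these 38 regions, 9 were multicopy and 9 had an AP-1 site. Another shared intergenic region lay within 10 kb of 399 regions (26.2%, interval 24.0 to 28.5%), and 26.3% of Etv4-only regions had another Etv4-only region within that distance.

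Each region was assigned to the protein-coding gene with the nearest transcript start. By this rule, 1120 of 21864 genes (5.12%) were assigned 1 or more shared intergenic regions: 852 had 1, 185 had 2 and 83 had 3 or more. The nearest annotated start of any kind was that of a protein-coding gene for only 587 regions (38.5%), and 566 regions (37.2%) lay more than 50 kb from the protein-coding start they were assigned to. An assignment by position does not show that the gene is controlled by the region. Regions were upstream of the assigned start in 66.4% of cases (interval 63.9 to 68.8%), 4.55 points (interval 1.34 to 7.73) more often than Etv4-only regions, at 61.8%, and compartment windows were upstream in 60.6%. Assigned genes also had an Etv4 region within 2 kb of a start more often than other protein-coding genes (31.7 against 16%, difference 15.7 points, interval 13.0 to 18.5), and likewise an Etv5 region (18.8 against 9.24%, difference 9.60 points, interval 7.38 to 12.03).

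Genes of 21 lists of pathways and cell types were then looked up, against the 5.12% of all protein-coding genes. Lists of TGF-β feedback and target genes had regions at 9 of 18 genes (50.0%, interval 26.02 to 73.98%), mesenchymal matrix at 7 of 17, ERK feedback at 6 of 16 and inflammatory cytokines and prostaglandin synthesis at 7 of 21. AP-1 subunits, EGF receptor ligands and receptors, transcription factors of the epithelial-mesenchymal transition, integrins and cell cycle genes each stood at 4 of 12. The counts were 4 of 14 for TGF-β ligands and receptors, 4 of 22 for extracellular proteases, 4 of 20 for the actin cytoskeleton, 3 of 12 for NF-κB feedback, 2 of 4 for RUNX factors, 2 of 14 for keratins, and 2 of 15 both for laminins and for YAP and TEAD targets. The count was 2 of 17 for ETS factors (11.8%, Ets2 and Etv1), 2 of 32 for ribosomal proteins (6.25%), 1 of 27 for epithelial identity and junctions (3.70%, Cldn1) and 0 of 16 for milk proteins and globins (interval 0 to 20.6%). The intervals of these 4 lists, and of keratins, laminins and YAP and TEAD targets, included the share of all genes. Etv4-only regions were assigned to the same genes as well. In lists with 9 or more shared intergenic regions, they were more numerous for TGF-β feedback (24 against 15), inflammatory genes (17 against 10) and mesenchymal matrix (15 against 9). They were fewer for ERK feedback (8 against 11) and transcription factors of the transition (7 against 12). Over all genes they numbered 1973 against 1523. Per Mb of compartment assigned to the genes, which allows for the length of sequence around them, the density was 1.65 over all genes, 11.01 for TGF-β feedback and targets, 7.22 for ERK feedback, 13.1 for inflammatory genes, 12.5 for extracellular proteases, 11.9 for RUNX factors, 11.2 for AP-1 subunits, 10.9 for keratins, 7.41 for laminins, 1.37 for epithelial identity and 1.33 for ETS factors. Mesenchymal matrix stood at 4.20, EGF receptor ligands and receptors at 4.42, YAP and TEAD targets at 4.44 and TGF-β ligands and receptors at 4.98. Cell cycle genes stood at 5.35, the actin cytoskeleton at 5.73 and transcription factors of the transition at 5.84. Values were 8.38 for NF-κB feedback, 10.9 for integrins and 0 for milk proteins and globins. The ribosomal list stood at 14.1 per Mb on 5 regions, 4 of them assigned to Rpl3, so a high density was also found in a list of housekeeping genes.

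**Figure D5:**
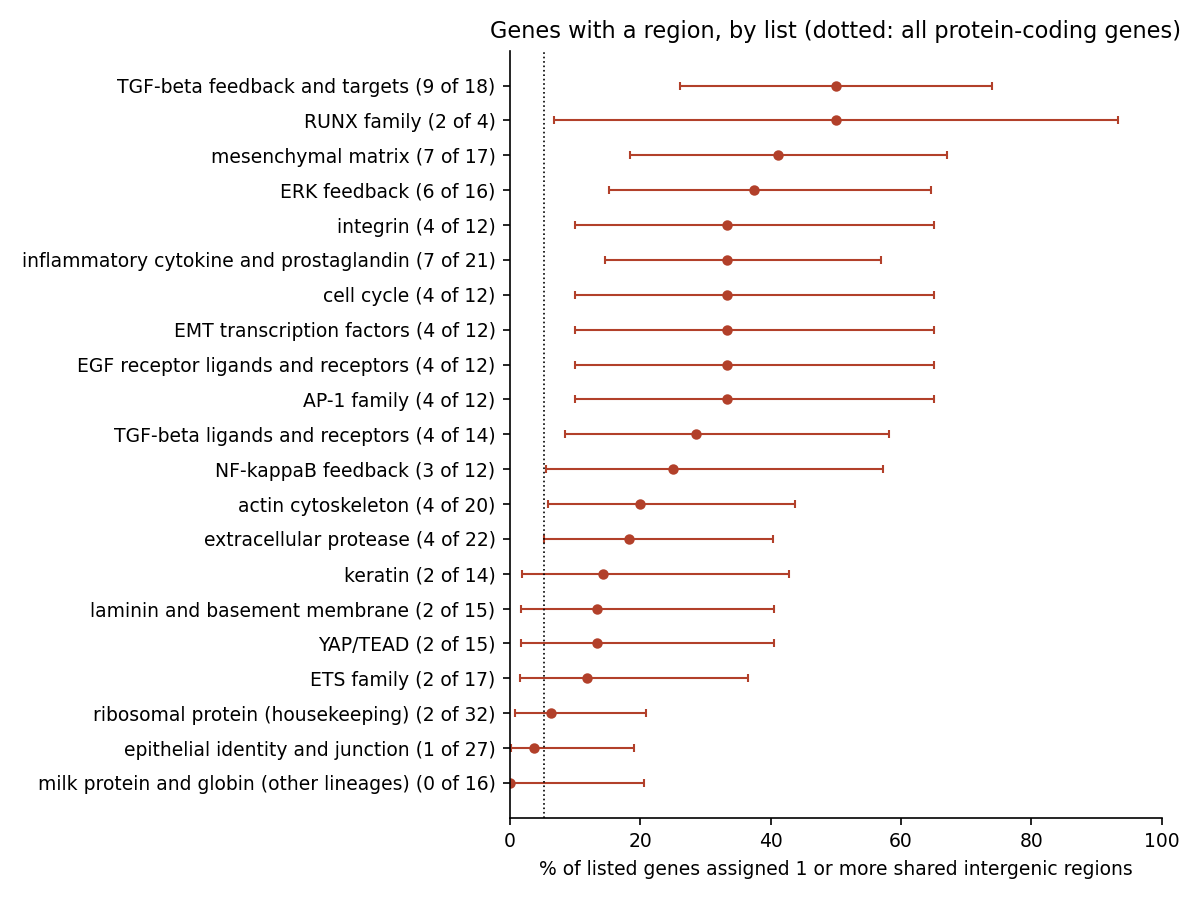
Percentage of the genes of each list that were assigned 1 or more shared intergenic regions, with exact 95% intervals (counts in parentheses). The dotted line marks the 5.12% of all protein-coding genes, and the lists of TGF-β feedback and targets and of the mesenchymal matrix lie at 50.0 and 41.2%.

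Sites given from here on for single regions are those within 250 bp of the Etv4 midpoint, and the rest of a region was not searched. At genes that restrain or report TGF-β signalling, Smad7, the inhibitory Smad, was assigned 4 regions. They lay 67.3, 22.4 and 3.81 kb upstream of the start and 35.8 kb downstream of it, and 2 of them had an AP-1 site. The region at 22.4 kb (chr18:75344658-75345551, 894 bp, number 1045 of the Etv4 list and 3100 of the Etv5 list) had an AP-1, an ETS and a RUNX site. Pmepa1, an inhibitor of the receptor-activated Smads, had regions 5.13 and 109 kb upstream, each with an AP-1 site. Smurf2, a ubiquitin ligase of the pathway, had regions 33.6 and 36.9 kb upstream, the latter early in both lists (608 and 565) and with an AP-1 and an ETS site. Among the ligands, Inhba, the activin subunit, was assigned 5 regions at distances of 234 to 656 kb, 1 of them multicopy at 99.5%.

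At genes of the Ras and ERK pathway, Errfi1, an inhibitor of the EGF receptor, had 3 regions, 54.1 and 45.3 kb upstream and 16.8 kb downstream. Their numbers were 1180, 1291 and 5621 in the Etv4 list and 246, 327 and 2090 in the Etv5 list, so all were relatively early in the Etv5 list. Dusp5 had 2 neighbouring regions downstream, of 1239 and 1394 bp, both with an AP-1 site and the second with the ETS site shown above. Dusp10 and Dusp7 had 2 regions each. Of the ligands of the EGF receptor, Areg, Ereg, Hbegf and Tgfa each had 1 region, at 102, 27.3, 23.0 and 37.7 kb, of which that of Ereg had an AP-1 site and none had an ETS site. The AP-1 subunits Fosb, Fosl1 and Junb had their region 6.81, 2.43 and 3.04 kb upstream and Batf3 22.7 kb downstream. The Junb region was 2257 bp long and held no AP-1, ETS, RUNX or TEAD site in its centre, the Fosb region held 2 AP-1 and 2 RUNX sites, and the Batf3 region stood at number 62 of the Etv4 list. Runx1 had 2 regions and Runx3 had 1.

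Among transcription factors of the epithelial-mesenchymal transition, Hmga2 was assigned 7 regions, all upstream at 106 to 156 kb and together spanning 50.4 kb. Their Etv4 lengths were 914, 968, 585, 1099, 962, 992 and 618 bp in the order of position, and the Etv5 partners measured 307, 317, 493, 344, 633, 355 and 379 bp. The Etv4 region was thus longer in all 7. An AP-1 site was present in 4 and an ETS site in 2 of them (chr10:120584364-120585331 and chr10:120627773-120628764). Snai1 had a region of 1804 bp 5.44 kb downstream of its start, without any of the 4 patterns within 250 bp of its midpoint. Sox9 and Tcf4 had 2 regions each.

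Genes of invasion and adhesion were considered next. Mmp13, a collagenase, had a single region 13.8 kb upstream (chr9:7258268-7259110, 843 bp, number 1241), overlapped by an Etv5 region of 348 bp (number 5042) that lay wholly inside it. Within 250 bp of its midpoint were 2 AP-1 sites and no ETS, RUNX or TEAD site. Plaur, the urokinase receptor, had a region of 1020 bp 2.67 kb upstream with an AP-1 and a TEAD site. The protease Adam12 had regions 5.44 and 29.4 kb upstream, both with an AP-1 and a TEAD site and the second also with an ETS site. Timp2, an inhibitor of metalloproteinases, had 3 regions at 5.31, 7.53 and 9.61 kb upstream, of which 1 had an AP-1 site. Among integrins, Itga3 had 3 regions at 9.53, 12.4 and 20.01 kb upstream and Itgb4 had 2 at 3.29 and 4.12 kb, while Itgav and Itgb1 had 1 each. Fn1, which encodes fibronectin, was assigned 2 regions 99.3 and 241 kb upstream. Spp1 had 2 regions, and Col1a1 and Col1a2 had 1 each. Of the epithelial keratins, Krt8 and Krt18 had 1 region each, with 2 AP-1 sites in the former and an AP-1 and an ETS site in the latter.

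For genes of inflammation, Ptgs2, the inducible cyclooxygenase, had 3 regions. That at 56.8 kb upstream (chr1:150042684-150043786, 1103 bp) stood at number 287 of the Etv4 and 338 of the Etv5 list and had a TEAD site, and those at 15.2 and 51.2 kb downstream had an AP-1 site. Lif had 2 regions downstream, and Csf2 and Cxcl1 1 each. Tnfaip3, which restrains NF-κB, had 3 regions at 30.5, 66.6 and 103 kb upstream, of which the first 2 had AP-1 and RUNX sites.

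The genes with the most shared intergenic regions were not all from the lists. Ifne and Olfr161 were assigned 8 each, Hmga2 and Rab39b 7 each, Gm3376 and Irf2bp2 6 each, and 6 further genes 5 each (Gadd45g, Inhba, Mreg, Nfatc2, Pgrmc2 and Vmn1r238). The 8 regions assigned to Ifne, 61.6 to 112 kb upstream of its start, lay within 51.1 kb on chromosome 4 and none was multicopy. In the same Mb (chr4:88000001-89000000) were 16 shared intergenic regions, the largest number per Mb of any chromosome, followed by 11 at chr19:5000001-6000000. Around Irf2bp2, 6 regions spanned 77.0 kb, 4 of them upstream, and AP-1 sites were present in 3. Nfatc2 had 5 regions, 3 of them with an AP-1 site. In contrast, the 8 regions assigned to Olfr161 (chr16:3113328-3509605), 81.7 to 477 kb upstream, had 0 AP-1 and 0 ETS sites, and 7 of them were multicopy. Likewise, the 7 regions assigned to Rab39b on X, 77.8 to 89.7 kb upstream and within 12.7 kb of each other, had 0 AP-1 sites and 4 were multicopy, and the 5 regions assigned to Vmn1r238 (chr18:3004098-3010616), 113 to 119 kb downstream, had 0 AP-1 sites, with repeats taking 4.24 to 71.1% of their sequence.

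The 5 earliest and the 5 longest regions, multicopy ones left out, are described singly. The 5 with the lowest numbers (5, 9, 13, 19 and 23) were also early in the Etv5 list (12, 4, 23, 30 and 60). They were assigned to Axin2, Rab10, Igf2bp3, Cd209a and Hic2, and only that of Igf2bp3 had an AP-1 site, while none had an ETS site. These 5 do not stand for the first quintile of the shared intergenic regions, in which 48.2% had an AP-1 and 10.8% an ETS site. Between 3.78 and 45.9% of their stretches of 36 bases had a further copy in the assembly. The longest were 4885 bp (chr11:3100149-3105033, assigned to Sfi1), 3628 bp on Y, 2949 bp at Tob2, 2653 bp at Nol12 and 2587 bp at Klf14. The Etv5 partner covered nearly all of the first (4879 bp), but 326 bp of the second and 447 bp of the third. Of these 5, only the region at Klf14 had an AP-1 site near its midpoint.

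Values at the limits of the rule were as follows. The shared intergenic region nearest to a start was 2.013 kb from Runx1 (chr16:92827582-92828742), and a shared region at 1.999 kb from Rps15a-ps7, with 80.3% of its sequence in repeats, was left out. The farthest was 49.971 kb from a start (chr3:60292751-60293492) and the next region beyond was at 50.036 kb and was multicopy (95.7%). The smallest overlap was 9 bp, at chr2:35478025-35478484. Among Etv4-only regions, the smallest gap to an Etv5 region was 8 bp, and 73 (3.70%) had an Etv5 region within 500 bp.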

How the data were processed

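ChIP-seq regions of 2 libraries from EpRas cells were analysed, 1 with an antibody to Etv4 and 1 with an antibody to Etv5, grouped by the antibody in the labels. The authors called regions per library with the single-sample mode of CisGenome, without a control library, after mapping to mm10. Submitters' processing notes name Bowtie. Libraries were amplified by 15 cycles of PCR. The deposited lists give region positions in bp, a region number of unstated criterion and a score, and this deposited score was 1000 for every region and was not used. No read count was given, so depth is unknown.

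Regions overlapped when they had 1 bp or more in common. Starts and gene bodies were those of GENCODE M21, all gene types. Coordinates are printed counting from 1. Patterns were searched on both strands within 250 bp of the Etv4 midpoint. Expected shares came from all 1847457 windows of 500 bp in the compartment (intergenic, 2 to 50 kb, outside both lists, no unknown bases), standardised to GC content in bins of 2 points, where bins under 100 windows used the nearest bin with that many. The interval of a fold is that of the share divided by the expected share. Multicopy regions are those in which more than 50% of stretches of 36 bases recur in the assembly. Where they were left out, the windows behind the expected shares were not filtered for such sequence. Regions were treated as independent, although neighbouring regions are not. With 1 library per antibody, no test between antibodies was made.

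The regions, gene lists and patterns were chosen with earlier results of these data known. The text names up to 4 genes per list by number of regions, the genes with most regions, the 5 lowest numbered and 5 longest regions, the first 6 AP-1 and ETS pairs and the regions at each limit of the rule. Other examples were chosen after their values were seen. A gene that this rule would name is not reported here. Functions were tested on simulated data. Computations used scipy 1.17.1, pandas 2.3.3, numba 0.67.0 and numpy 2.4.6 under Python 3.11.15, and plots were drawn with matplotlib 3.10.9.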

Additional observations from a re-analysis of the deposited data

How the results depend on the processing

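Of 54 values under other settings, 41 stayed within the interval of the value given above, or within 1.5 times it for counts, and 13 moved. All 21 folds stayed above 1. The number of shared intergenic regions was 862 in the first 50% of each list by number, 846 in the longer 50% and 1014 at 2 to 20 kb, fewer by construction. Without multicopy regions in either list, which left 1355 regions (1358 where only Etv4 regions were filtered, as in the text above), the AP-1 share was 56.2% and its fold 7.14. In 200 bp around the midpoint, the AP-1 share was 33.8% at 10.7-fold and the ETS share 3.81% at 2.33-fold. Against windows 2 kb to each side, AP-1 was at 5.91-fold. With protein-coding genes alone as annotation, the ETS share was 9.76%, and with CCGGAAGT alone it was 0.985%. Counting every protein-coding gene whose body or start was within 50 kb raised the number of genes to 1879. A shorter window or a stricter pattern lowers a share by construction, and for the other moves the cause was not tested. The AP-1 difference from Etv4-only regions was 2.84 points, and the ETS difference -3.69 points, as weighted averages within quintiles of the region number, without intervals. The interval of the ETS difference included 0 without multicopy regions and in 200 bp. No paired analysis was possible because there was only 1 library for either antibody.

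The main limits are the single library per antibody, the absence of a control library and of read depth, and the assignment of genes by position. A match to a pattern is not a bound site.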
